A study of Mus musculus with 7 samples.

Results

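The acinar transcription factors examined here are 8 genes, Ptf1a, Rbpjl, Bhlha15, Nr5a2, Gata4, Xbp1, Foxp2 and Creb3l1, chosen by symbol from the 27138 features of a table of raw read counts. All 8 were found under 1 Ensembl identifier each, and all 8 were among the 16910 features with enough counts to be tested. The table covers polyadenylated RNA of the whole pancreas of mouse embryos at E15.5, a stage at which acinar cells differentiate at the tips of the branching epithelium. The 3 cKO embryos carried Pdx1Cre together with homozygous floxed alleles (mLINC00673fl/fl) of 2610035D17Rik, a long non-coding RNA gene orthologous to human LINC00673, and the 4 WT embryos carried the same floxed alleles without the Cre driver. Each library came from its own animal, per the design text of the series. Pdx1Cre acts in the pancreatic epithelium, whereas the dissected organ also holds mesenchyme, vessels, nerves and blood cells. WT embryos had no Cre, so an effect of the deletion and an effect of Cre itself cannot be told apart. The comparison asked whether the regulators of the acinar program differ once this RNA is deleted.

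Acinar cells make and secrete the digestive enzymes. Ptf1a is a basic helix-loop-helix protein that pairs with an E protein such as Tcf3 or Tcf12 and binds an E-box, and the pair is joined by Rbpj in early progenitors or by its acinar paralog Rbpjl in differentiating acinar cells. The resulting PTF1 complex activates enzyme genes such as Ctrb1, chymotrypsinogen B, and Rbpjl itself. Bhlha15, also called Mist1, scales up the secretory apparatus and zymogen granule traffic, Xbp1 expands the endoplasmic reticulum in the unfolded protein response, and Nr5a2 is an orphan nuclear receptor that cooperates with PTF1 on enzyme genes. Gata4 is a zinc finger factor of the early pancreatic bud and later of acinar cells, Creb3l1 is a transcription factor anchored in the endoplasmic reticulum, and Foxp2 is a forkhead repressor.

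Promoters of 5 of the 8 factors, Ptf1a, Rbpjl, Bhlha15, Nr5a2 and Xbp1, and that of Ctrb1 were matched by symbol to RefSeq on build GRCm38.p6. The promoters of Rbpjl and Ctrb1 are shown because both hold the letters of a PTF1 site in 1 arrangement, and those of Ptf1a and Bhlha15 because each holds only 1 of its boxes. Each window has 300 bases, 250 before the annotated start and 50 after it, read 5′ to 3′ on the strand of the gene. Capitals mark the E-box CANNTG and the Rbpj box TGGGAA, each searched on both strands. The windows are chr2:164402944-164403243 on the plus strand for Rbpjl, chr8:111690961-111691260 on the minus strand for Ctrb1, chr2:19445413-19445712 on the plus strand for Ptf1a and chr5:144190036-144190335 on the plus strand for Bhlha15.
Rbpjl: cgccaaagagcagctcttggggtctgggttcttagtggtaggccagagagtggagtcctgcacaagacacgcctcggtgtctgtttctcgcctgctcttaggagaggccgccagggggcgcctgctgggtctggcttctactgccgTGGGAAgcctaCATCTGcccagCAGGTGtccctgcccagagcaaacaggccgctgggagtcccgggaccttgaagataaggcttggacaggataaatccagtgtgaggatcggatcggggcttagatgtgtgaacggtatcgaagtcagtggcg
Ctrb1: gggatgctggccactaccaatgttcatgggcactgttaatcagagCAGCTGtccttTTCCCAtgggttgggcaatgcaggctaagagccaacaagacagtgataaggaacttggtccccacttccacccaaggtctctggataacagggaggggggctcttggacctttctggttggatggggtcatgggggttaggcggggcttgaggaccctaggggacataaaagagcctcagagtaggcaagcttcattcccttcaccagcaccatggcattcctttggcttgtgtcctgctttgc
Ptf1a: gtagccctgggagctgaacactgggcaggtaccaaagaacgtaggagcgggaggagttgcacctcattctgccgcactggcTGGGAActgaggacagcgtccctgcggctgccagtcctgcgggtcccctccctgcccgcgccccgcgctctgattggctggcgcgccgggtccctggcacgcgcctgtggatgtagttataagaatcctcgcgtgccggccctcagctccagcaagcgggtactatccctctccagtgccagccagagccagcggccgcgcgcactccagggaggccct
Bhlha15: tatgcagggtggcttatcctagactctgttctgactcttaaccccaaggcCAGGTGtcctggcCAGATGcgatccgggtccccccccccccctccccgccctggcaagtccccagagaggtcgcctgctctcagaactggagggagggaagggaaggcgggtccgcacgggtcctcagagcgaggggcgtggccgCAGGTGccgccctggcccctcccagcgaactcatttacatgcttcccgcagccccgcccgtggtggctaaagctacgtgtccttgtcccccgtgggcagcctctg

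In the Ctrb1 promoter the E-box and the Rbpj box stand 5 bases apart, as CAGCTGTCCTTTTCCCA at bases 46 to 62 of the window. The Rbpjl promoter holds the same arrangement on the opposite strand, read as TGGGAAGCCTACATCTG at bases 147 to 163. The combined letters CANNTGNNNNNTTCCCA occurred in 40 of 32851 promoters, or 0.122%, and this spacing was chosen after the Ctrb1 and Rbpjl windows had been seen. Among 25 digestive enzyme and granule genes with a promoter in the table, Ctrb1 was the only match. Taken singly, an E-box occurred at 21 of these 25 genes and in 72.3% of all promoters, and the Rbpj box in 15 of the 25 and in 25.6% of all promoters. The Ptf1a window held an Rbpj box and no E-box, and the Bhlha15 window held E-boxes and no Rbpj box. The Xbp1 window held both, with 1 Rbpj box overlapping an E-box. Of the other motifs searched on both strands, AGATAA is bound by zinc finger factors such as Gata4. It was in the Rbpjl promoter, at 7 of the 25 enzyme and granule genes and in 11.2% of all promoters. Nr5a2 has more than 1 window, and AGATAA was in that at chr1:136960399-136960698 and not in that at chr1:136953581-136953880. TGACGTG, a motif of unfolded protein response factors (2.01% of all promoters), and CAAGGTCA, a motif of Nr5a receptors (1.56%), were in none of the 5. Among the 25 enzyme and granule genes, TGACGTG was at 0 and CAAGGTCA at 2, Cel and Klk1. A match describes the letters in these windows only.

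As a check of the labels, 2610035D17Rik had 2.55 ± 0.725 CPM in cKO (SD, n = 3) and 8.64 ± 0.497 CPM in WT (SD, n = 4), where CPM is the read count scaled to a common, TMM-adjusted library total. The log2 fold change was −1.76 (SE 0.215), and cKO and WT did not overlap. The exact two-sided permutation p was 0.0286, the smallest that 35 divisions of the libraries allow, and the edgeR adjusted p was 0.0902. The call depended on the method, as the adjusted p was 1.25e-09 in DESeq2 and 0.0121 in edgeR with no filter on low counts. Library totals were 17028268 to 17757922 counts in cKO and 14883918 to 17767373 counts in WT. cKO replicate 1 and WT replicate 4 stood apart by liver genes. Alb, serum albumin, had 688, 14.8 and 31.0 CPM in cKO replicates 1 to 3, against 8.58, 25.6, 9.25 and 354 CPM in WT replicates 1 to 4. The header of WT replicate 4 also carries another number after the group name than those of the other 6 libraries, and the labels do not say what that number stands for.

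No difference between cKO and WT embryos was detected in the transcripts of the 8 factors, and the ranges of the groups overlapped for each. With edgeR's quasi-likelihood test, 0 of 8 factors passed an adjusted p of 0.05 in either direction, where 0.00591% of all tested features did. At an unadjusted p under 0.05 the count was also 0 of 8, against 1.38% of all features, and DESeq2 called 0 of 8, against 0.0771%. The CPM of cKO and WT overlapped for all 8 factors, while 2.73% of all features showed no overlap. In the fit 4 of the 8 were higher in cKO, against 46% of all features, and their median log2 fold change was −0.03, against −0.01 for all features. Each factor had a Benjamini-Hochberg adjusted p of 0.9999. In these whole-organ samples, fewer cells of a type and less RNA per cell cannot be told apart.

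**Figure D1:**
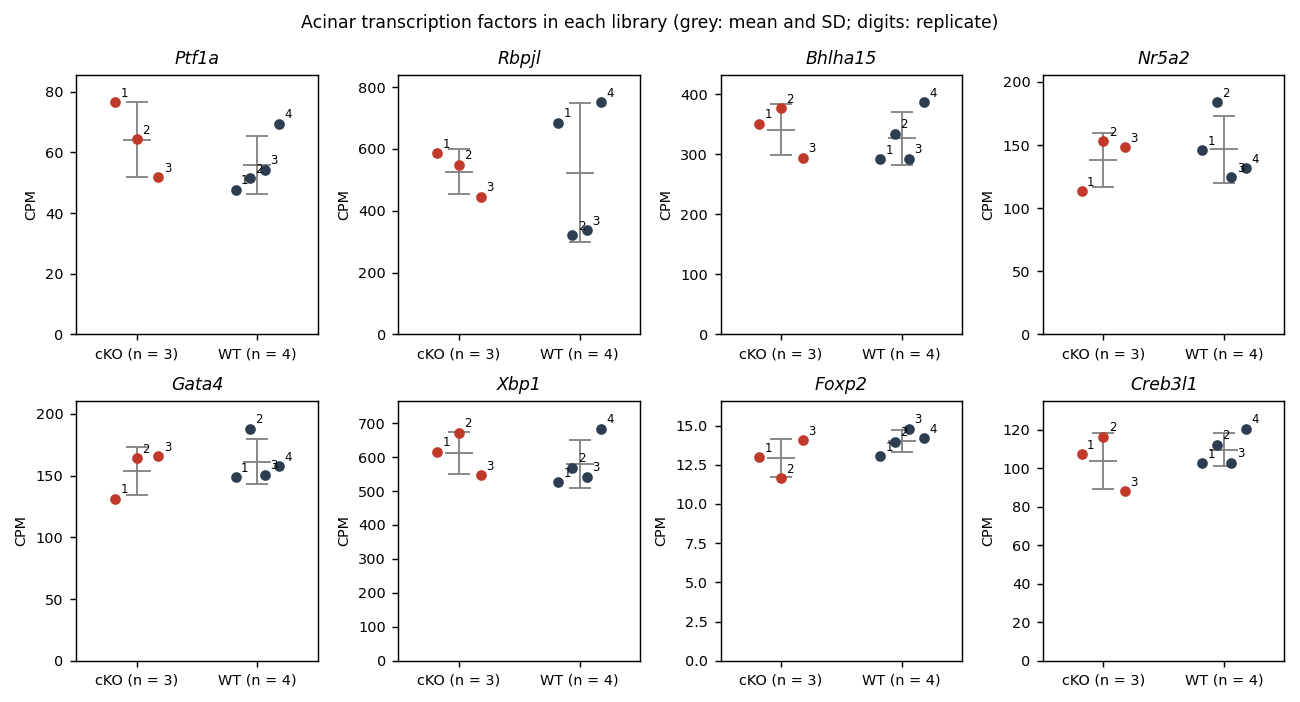
CPM (vertical axes starting at 0) of the 8 factors in each library, cKO left and WT right, with the replicate number beside each point and the mean and SD in grey. The groups overlap for every factor, and Rbpjl in WT shows a pair of libraries near 700 CPM and a pair near 330 CPM (684.7 and 750.8 against 321.3 and 337.9).

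Among the PTF1 subunits, Ptf1a had 76.5, 64.3 and 51.8 CPM in cKO replicates 1 to 3, against 47.8, 51.5, 54.3 and 69.4 CPM in WT replicates 1 to 4. cKO replicates 1 and 2 and WT replicate 4 were high, and cKO replicate 3 lay among the other WT libraries. The mean was 64.2 ± 12.4 CPM in cKO (SD, n = 3) and 55.7 ± 9.52 CPM in WT (SD, n = 4). The log2 fold change of Ptf1a was 0.20 (SE 0.161), with a 95% interval of −0.16 to 0.57 that leaves room for a cKO level between 0.893 and 1.49 times that of WT. The exact permutation p was 0.314. In the annotation 40.4% of the exon bases of Ptf1a are shared with the antisense gene Ptf1aos. The labels describe no step that marks strand, so reads of both genes cannot be told apart there. Ptf1aos itself was listed with 30 counts in all 7 libraries together, against 865 to 1296 counts of Ptf1a per library.

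Rbpjl was the most variable of the 8. It had 587, 549 and 446 CPM in cKO replicates 1 to 3, against 685, 321, 338 and 751 CPM in WT replicates 1 to 4. The WT libraries fell into a high pair and a low pair, with all 3 cKO libraries between them. The highest WT library was 2.34 times the lowest, and the coefficient of variation was 13.8% in cKO and 43.1% in WT. Group means were almost equal, at 527 ± 72.8 CPM in cKO (SD, n = 3) and 524 ± 226 CPM in WT (SD, n = 4). In the fit Rbpjl gave a log2 fold change of 0.01 (SE 0.339), and the 95% interval of −0.79 to 0.81 is the widest of the 8 factors. These levels rest on 8081 to 9938 counts in cKO and 5401 to 12689 counts in WT. In the annotation 2.60% of the exon bases of Rbpjl are shared with Matn4 on the opposite strand, which had 81.1 to 102 CPM over the 7 libraries. Its SD of log2 CPM over the 7 libraries exceeded that of 96.4% of the 10700 tested features with a mean of at least 10 CPM.

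The embryos with most Rbpjl in WT had almost no Ctrc, a chymotrypsin. Ctrc had 117, 116 and 64.0 CPM in cKO replicates 1 to 3, against 2.64, 53.0, 60.016 and 3.95 CPM in WT replicates 1 to 4. WT replicates 1 and 4, at 685 and 751 CPM of Rbpjl, were thus the libraries lowest in Ctrc. The relation did not extend to cKO, where replicates 1 and 2 held 587 and 549 CPM of Rbpjl and the highest Ctrc. Over 7 libraries Pearson's r of the log2 CPM of Rbpjl and Ctrc was −0.59, a pair chosen after its values were seen. Between the genotypes, every cKO library lay above every WT library in Ctrc, where 2.73% of all features showed no overlap. The lowest cKO value was 64.0 CPM and the highest WT value 60.016 CPM. Group means were 99.1 ± 30.4 CPM in cKO (SD, n = 3) and 29.9 ± 30.9 CPM in WT (SD, n = 4). The log2 fold change of Ctrc was 1.72 (SE 1.11). It did not pass, with an edgeR adjusted p of 0.9999 and an exact permutation p of 0.114.

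Rbpj, the ubiquitous paralog that Rbpjl replaces in the PTF1 complex, varied between embryos within both genotypes. It had 30.2, 74.3 and 30.0 CPM in cKO replicates 1 to 3, against 31.5, 80.6, 31.2 and 28.3 CPM in WT replicates 1 to 4. cKO replicate 2 and WT replicate 2 were more than 2 times as high as the other 5 libraries. The processed pseudogene Rbpj-ps3, a copy of Rbpj, ran opposite, with 10.2, 1.89 and 18.8 CPM in cKO replicates 1 to 3, against 18.3, 1.96, 18.6 and 14.6 CPM in WT replicates 1 to 4. Reads of Rbpj and of its copy can be split between them by the counting, so the Rbpj level is uncertain. The embryos high in Rbpj were not those high or low in Rbpjl as a group, with 549 CPM of Rbpjl in cKO replicate 2 and 321 CPM in WT replicate 2.

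**Figure D2:**
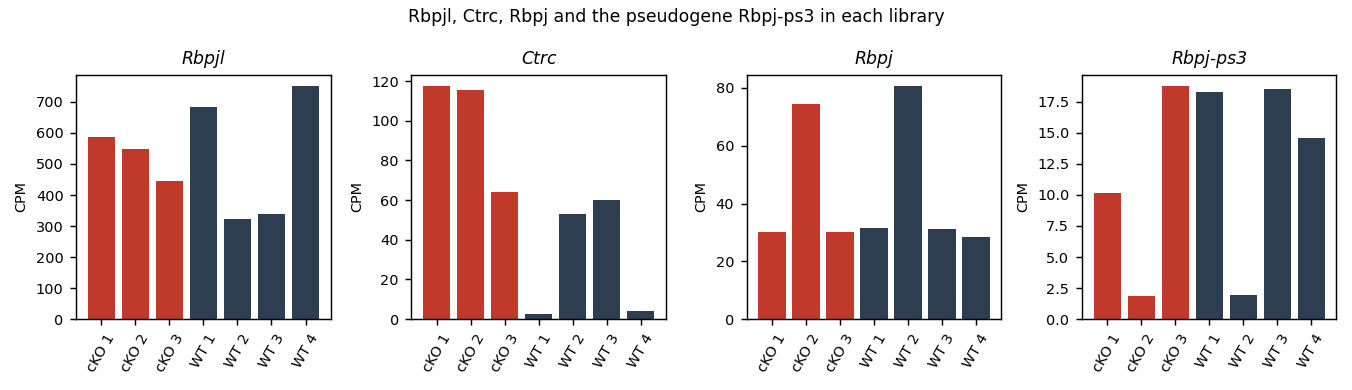
CPM of Rbpjl, Ctrc, Rbpj and the pseudogene Rbpj-ps3 in each library, cKO replicates 1 to 3 and then WT replicates 1 to 4, with bars starting at 0. WT replicates 1 and 4 are highest in Rbpjl and lowest in Ctrc (2.64 and 3.95 CPM), and replicate 2 of each group is highest in Rbpj (74.3 and 80.6 CPM) and lowest in Rbpj-ps3.

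The other PTF1 partners and antagonists did not pass the test either. Of 10 listed genes, all tested, 5 were higher and 5 lower in the fit (median log2 fold change 0.01), and 0 passed the threshold in either direction. Of all features, 46% were higher in the fit and 0.00591% passed. The E protein genes Tcf3 and Tcf12 gave log2 fold changes of −0.07 (SE 0.0905) and −0.17 (SE 0.141). Tcf12 had 128 ± 26.0 CPM in cKO (SD, n = 3) and 143 ± 12.8 CPM in WT (SD, n = 4). Id2, an inhibitor that sequesters E proteins, had the smallest p of this list, with 137 ± 9.21 CPM in cKO and 122 ± 9.19 CPM in WT (log2 fold change 0.16, SE 0.087), and its groups overlapped. Hes1, the Notch effector that restrains acinar differentiation, had 61.1 ± 1.59 CPM in cKO and 59.9 ± 3.77 CPM in WT.

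Bhlha15 had 351, 377 and 294 CPM in cKO replicates 1 to 3, against 292, 334, 293 and 386 CPM in WT replicates 1 to 4. The same embryos as for Ptf1a were high, and the range of each group lay over that of the other. For Bhlha15 the log2 fold change was 0.06 (SE 0.127, 95% interval −0.23 to 0.35; exact permutation p = 0.686). Xbp1 had 616, 671 and 547 CPM in cKO replicates 1 to 3, against 527, 569, 542 and 684 CPM in WT replicates 1 to 4. Its library order was close to that of Bhlha15, with WT replicate 4 and cKO replicate 2 highest in both. For Xbp1 the log2 fold change was 0.08 (SE 0.115, 95% interval −0.19 to 0.34; exact permutation p = 0.514).

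Creb3l1 had 107, 116 and 88.0 CPM in cKO replicates 1 to 3, against 103, 112, 103 and 120 CPM in WT replicates 1 to 4. cKO replicate 3 was the lowest library, and the rest lay within 103 to 120 CPM. The log2 fold change of Creb3l1 was −0.08 (SE 0.109, 95% interval −0.33 to 0.17; exact permutation p = 0.6).

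Nr5a2 had 114, 153 and 148 CPM in cKO replicates 1 to 3, against 146, 184, 125 and 131 CPM in WT replicates 1 to 4. cKO replicate 1 was lowest and WT replicate 2 highest. The log2 fold change of Nr5a2 was −0.08 (SE 0.155, 95% interval −0.44 to 0.27; exact permutation p = 0.686). Gata4 had 131, 164 and 166 CPM in cKO replicates 1 to 3, against 149, 188, 151 and 158 CPM in WT replicates 1 to 4, with the same lowest and highest embryos as Nr5a2. Its log2 fold change was −0.07 (SE 0.117, 95% interval −0.33 to 0.20; exact permutation p = 0.6). Gata6, its paralog in the pancreatic bud, had 95.4 ± 4.36 CPM in cKO (SD, n = 3) and 96.5 ± 5.28 CPM in WT (SD, n = 4).

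Foxp2 was the scarcest factor and the steadiest, with 13.0, 11.7 and 14.1 CPM in cKO replicates 1 to 3, against 13.1, 14.0, 14.8 and 14.2 CPM in WT replicates 1 to 4. These values rest on 197 to 255 counts in cKO and 201 to 256 counts in WT. The lowest 2 libraries were cKO, but cKO replicate 3 lay among the WT values. For Foxp2 the log2 fold change was −0.12 (SE 0.117, 95% interval −0.38 to 0.15; exact permutation p = 0.2). Its paralogs Foxp1 and Foxp4 gave log2 fold changes of −0.03 (SE 0.104) and −0.01 (SE 0.0823). Over the list of paralogs of the factors, 11 of 14 were tested, 4 were higher and 7 lower in the fit, and 0 passed in either direction. Of all features, 46% were higher in the fit and 0.00591% passed.

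**Figure D3:**
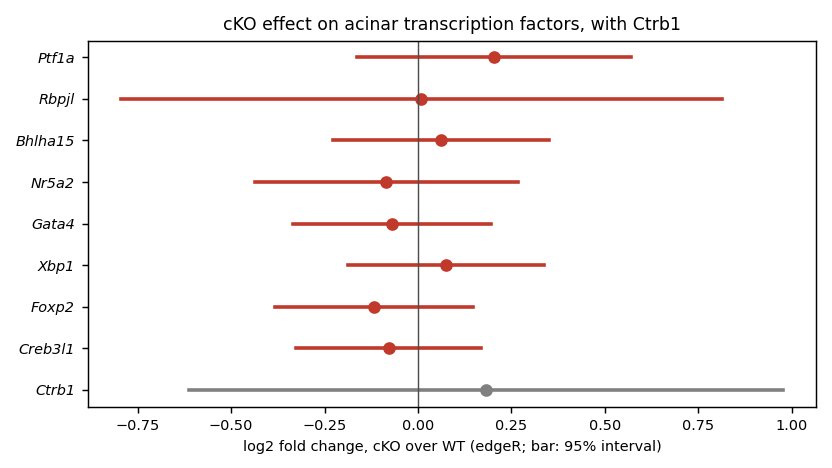
Log2 fold change of the 8 factors and of Ctrb1, cKO over WT, from the edgeR fit, with 95% intervals as bars and no change as the vertical line. Every interval crosses 0, and those of Rbpjl (−0.79 to 0.81) and Ctrb1 (−0.61 to 0.98) are the widest.

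Per kilobase of annotated exon, the order of WT levels was Xbp1, Bhlha15, Rbpjl, Creb3l1, Gata4, Ptf1a, Nr5a2 and Foxp2. Xbp1 stood at 188 ± 19.3 CPM per kb in cKO (SD, n = 3) and 179 ± 21.9 in WT (SD, n = 4), with no library in the range of the next gene. Bhlha15, at 97.5 ± 12.1 CPM per kb in cKO and 93.4 ± 12.8 in WT, and Rbpjl, at 92.0 ± 12.7 in cKO and 91.4 ± 39.4 in WT, overlapped. Creb3l1 (39.9 ± 5.54 in cKO and 42.1 ± 3.28 in WT), Gata4 (39.4 ± 4.98 in cKO and 41.3 ± 4.66 in WT) and Ptf1a (42.6 ± 8.21 in cKO and 37.0 ± 6.32 in WT, all CPM per kb) overlapped as neighbours too. Nr5a2 followed at 23.4 ± 3.64 CPM per kb in cKO and 24.8 ± 4.47 in WT, and its highest library, at 31.2, was just under the lowest of Ptf1a, at 31.7. Foxp2 came last with 0.789 ± 0.0741 CPM per kb in cKO and 0.857 ± 0.0442 in WT. Its level is divided over 16.3 kb, the exons of all annotated isoforms together. That of Ptf1a is divided over 1.51 kb, of which 40.4% is shared with Ptf1aos. How reads in shared bases were counted is not stated, so the place of Ptf1a beside Creb3l1 and Gata4 is uncertain.

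The levels of Ptf1a, Bhlha15 and Xbp1 followed the enzyme gene Ctrb1 across embryos of both genotypes. Ctrb1 itself had 31520, 25499 and 16734 CPM in cKO replicates 1 to 3, against 15769, 17873, 17585 and 35435 CPM in WT replicates 1 to 4. Its log2 fold change was 0.18 (SE 0.338, 95% interval −0.61 to 0.98). cKO replicates 1 and 2 and WT replicate 4 lay above the other 4 libraries by a gap of 0.51 on the log2 scale. That gap exceeded the range within either set, 0.47 among the upper 3 and 0.18 among the lower 4. Because the libraries fall into clusters of 3 and 4, coefficients over all 7 only describe likeness, and no p is given for them.

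Pearson's r of log2 CPM with Ctrb1 over the 7 libraries was 0.96 for Ptf1a, 0.90 for Xbp1 and 0.88 for Bhlha15, and Spearman's rho was 0.86, 0.93 and 0.93 in that order. These 3 of 8 factors had r over 0.8, a bound set after the values were seen, while 7.27% of all features did, and the median r of all features with Ctrb1 was −0.0032. For each of the 3, the lowest of cKO replicates 1 and 2 and WT replicate 4 lay above the highest of the other 4 libraries. Those values were 64.3 and 54.3 CPM for Ptf1a, 616 and 569 CPM for Xbp1, and 351 and 334 CPM for Bhlha15. Taken as deviations from the mean of each group, r was 0.97 for Ptf1a, 0.90 for Xbp1 and 0.88 for Bhlha15. Without WT replicate 4 and cKO replicate 1, the libraries farthest from the Ctrb1 median and also those highest in liver genes, r over the other 5 was 0.97, 0.99 and 0.92, which rests on cKO replicate 2 as the 1 library left above the gap. Alb itself gave r = 0.84 with Ctrb1 over 7 libraries and 0.041 without those 2. cKO replicate 2 had 14.8 CPM of Alb, within the range of the 4 libraries low in Ctrb1. The part of liver tissue in these coefficients was not tested.

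The other 5 factors followed Ctrb1 less closely or not at all. Creb3l1 gave r = 0.66 and rho = 0.86. Rbpjl gave r = 0.56 and rho = 0.32, and r was 0.91 without WT replicate 1 and 0.098 without WT replicate 4 and cKO replicate 1. WT replicate 1 is the library with the second highest Rbpjl and the lowest Ctrb1. Gata4, Nr5a2 and Foxp2 had coefficients below 0, at −0.37, −0.49 and −0.25. Without WT replicate 4 and cKO replicate 1 those of Gata4 and Nr5a2 were 0.20 and 0.13, so their sign rested on these libraries. Foxp2 gave −0.75 over the same 5 libraries.

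**Figure D4:**
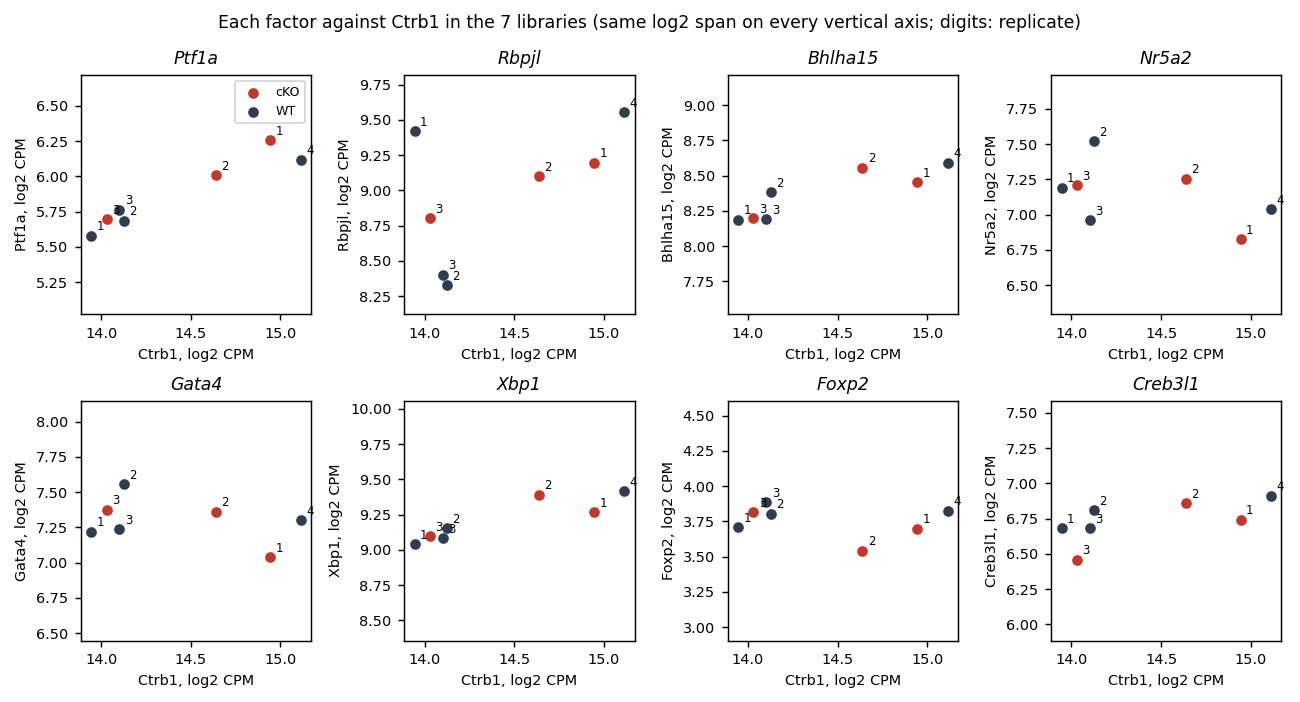
Log2 CPM of each factor against log2 CPM of Ctrb1 in the 7 libraries, cKO in red and WT in dark blue, with the replicate number beside each point and the same span on every vertical axis. Ptf1a, Bhlha15 and Xbp1 are higher in the 3 libraries with at least 25499 CPM of Ctrb1 than in the other 4, Rbpjl in WT replicate 1 lies far above that order, and Gata4, Nr5a2 and Foxp2 do not rise with Ctrb1.

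Across the list of digestive enzymes and granule proteins, Ptf1a was the factor with most genes at r over 0.8. Of 32 tested members, 25 had r over 0.8 with Ptf1a, or 78.1%, against 7.4% of all features. The counts were 13 for Xbp1, 9 for Bhlha15 and 4 for Rbpjl, against 4.05%, 4.41% and 2.7% of all features, and 0 for Creb3l1, Nr5a2, Gata4 and Foxp2, against 1.56%, 5.12%, 8.1% and 0.556%. The median r of the list was 0.87 with Ptf1a, 0.69 with Rbpjl and −0.54 with Nr5a2. With Ctrb1, itself a member of the list, 26 of the other 31 had r over 0.8, against 7.27% of all features. Their median r with Ctrb1 was 0.92, so they ran with it about as closely as with Ptf1a. Pnlip, Ctrc and Pla2g1b were the members least like Ptf1a, with r of −0.03, 0.25 and 0.27, and Pnlip and Pla2g1b, a lipase and a phospholipase, averaged 1.61 and 0.683 CPM over the 7 libraries. In the comparison of cKO with WT, 27 of the 32 were higher in the fit, against 46% of all features, and 0 passed in either direction. Their median log2 fold change was 0.20, against −0.01 for all features. Single values ran from −0.84 for Amy2b to 1.72 for Ctrc, whose groups did not overlap, as in 2.73% of all features. Most of these genes moved together across embryos, so their directions are not independent.

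Genes listed as targets of Bhlha15 and of Xbp1 ran with their factor across embryos, and with Ctrb1 about as closely. Over 0.8 with Ctrb1 were 6 of the 10 Bhlha15 targets (median r 0.86, against 0.84 with Bhlha15) and 15 of the 22 Xbp1 targets (median r 0.91, against 0.86 with Xbp1). Of 10 listed Bhlha15 targets, 7 had r over 0.8 with Bhlha15, where 4.41% of all features did. Rab3d, a zymogen granule GTPase, gave 0.95, and Gjb1, a gap junction protein of acinar cells, 0.90. In the comparison of cKO with WT, 8 of the 10 were higher in the fit, against 46% of all features, and 0 passed in either direction. Their median log2 fold change was 0.08, against −0.01 for all features. Rab3d had 261 ± 39.9 CPM in cKO (SD, n = 3) and 249 ± 51.2 CPM in WT (SD, n = 4). Of 22 listed Xbp1 targets, 16 had r over 0.8 with Xbp1, where 4.05% of all features did. Edem1, which sends misfolded proteins to degradation, gave 0.97, and Hspa5, the main chaperone of the endoplasmic reticulum, 0.91 with 1652 ± 188 CPM in cKO and 1594 ± 228 CPM in WT. Of the 22, 15 were higher in the fit, against the same 46%, and 0 passed in either direction. Their median log2 fold change was 0.06. Of 11 tested Golgi and collagen export genes listed with Creb3l1, 1, the Golgi tether Cog6, had r over 0.8 with it, against 1.56% of all features. Between cKO and WT 0 of the 11 passed, against 0.00591% of all features. The collagen genes Col1a1 and Col1a2, abundant in mesenchyme, gave r of −0.38 and −0.21.

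Among themselves, Ptf1a, Xbp1, Bhlha15 and Creb3l1 were joined in a chain, and Nr5a2 and Gata4 formed a separate pair. Of the 28 pairs, 4 had r over 0.8 over the 7 libraries: Bhlha15 with Xbp1 (0.97), Nr5a2 with Gata4 (0.92), Bhlha15 with Creb3l1 (0.83) and Ptf1a with Xbp1 (0.82). Of all features, 0.556% to 8.1% had r over 0.8 with a factor, depending on the factor. Ptf1a and Nr5a2 gave −0.60. In each library both genes of a pair share its depth and tissue makeup. These coefficients therefore describe likeness across embryos, and a link between genes was not tested.

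Genes outside the list that were most like each factor were ranked among 11702 genes with a mean of at least 5 CPM. Closest to Ptf1a were Gemin7, Rps19 and Smim11 (r = 0.99 for each), to Rbpjl Mier2, Fbxw5 and Gls2 (0.97, 0.97 and 0.96), and to Bhlha15 Kars, Bphl and Tpst2 (0.99, 0.99 and 0.98). Closest to Nr5a2 were Tfdp1, Mcm5 and Rnf43 (0.98 for each), to Gata4 Cdcp1, Mtdh and Asph (1.00, 0.99 and 0.99), and to Xbp1 Rpl30, Slc25a26 and Cdpf1 (0.99, 0.98 and 0.98). Closest to Foxp2 were Adamts19, Oprk1 and Ctso (0.91, 0.91 and 0.90), and to Creb3l1 Ptcd1, Qpctl and Pls1 (0.99, 0.98 and 0.97). These genes are the highest of many over only 7 points. The share of all features with r over 0.8 was 8.1% with Gata4 and 0.556% with Foxp2.

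The summed levels of markers of other cell types overlapped between cKO and WT. The summed level of the 13 liver genes was 382 to 1995 CPM in cKO and 307 to 1294 CPM in WT, that of the 10 mesothelial genes 216 to 318 CPM in cKO and 223 to 294 CPM in WT, and that of the 14 mesenchymal genes 10186 to 11160 CPM in cKO and 10128 to 12434 CPM in WT. No marker of these 3 lists was at 0 counts in any library. The summed level of the 10 erythroid genes was 1333 to 2840 CPM in cKO and 967 to 2332 CPM in WT, highest in cKO replicate 1 and WT replicate 4. In the fit all 13 liver genes and all 10 erythroid genes were higher in cKO, with median log2 fold changes of 0.94 and 0.37, and 0 passed. Of all features, 46% were higher in the fit, with a median of −0.01. The 12 genes of neurons and Schwann cells summed to 259 to 1226 CPM in cKO and 237 to 970.4 CPM in WT, highest in cKO replicate 1 and WT replicate 1. Liver genes were highest in cKO replicate 1 and WT replicate 4, which are also high in Ptf1a, Bhlha15 and Xbp1, and the coefficients without both libraries are given above. Markers of endocrine cells and of macrophages and leukocytes were highest in the same 3 libraries as Ptf1a, Bhlha15, Xbp1 and Ctrb1. The 15 endocrine genes summed to 2520, 2198 and 2018 CPM in cKO replicates 1 to 3, against 2104, 1895, 1857 and 2329 CPM in WT replicates 1 to 4. The 10 macrophage and leukocyte genes summed to 324, 286 and 271 CPM in cKO replicates 1 to 3, against 237, 251, 269 and 357 CPM in WT replicates 1 to 4. No marker of either list was at 0, and their part in the levels of the factors was not tested. The part of other tissues in the levels of Gata4, Nr5a2, Foxp2 and Creb3l1, which are not exclusive to acinar cells, was not tested.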

How the data were processed

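The authors deposited 1 table of raw counts per feature for 7 libraries, with no normalization. Per the submitters' processing notes, HISAT2, StringTie, featureCounts and build mm39 were used, with no version or option stated there. Libraries were made from poly-T selected RNA with a NEBNext Ultra kit, per the labels' protocols, which describe no step that marks strand. Symbols, biotypes, exon lengths and overlaps came from GENCODE M21 on GRCm38, so no gene coordinates are given, and promoters came from RefSeq on GRCm38.p6. Symbols were found for 26764 of 26823 Ensembl identifiers, and 315 features with a running number took 0.206% of counts.

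The test across features was that of edgeR 4.0.16 under R 4.3.3 (filterByExpr, TMM, glmQLFit with robust estimation, glmQLFTest, group as the only term), with Benjamini-Hochberg adjustment over all 16910 features and a threshold of 0.05. SEs and 95% intervals come from the same fit. Log2 CPM used a prior count of 2. Exact permutation tests were two-sided over 35 divisions. The common biological coefficient of variation was 0.218. No 2 libraries matched within sampling noise (chi-square over its degrees of freedom was 12.0 to 55.6). The fit was tested on simulated data. DESeq2 1.42.0, limma 3.58.1 (voom) and the other alternatives are given in the closing section. The members, lists and bounds were chosen with earlier results of these data known. Named genes were the 8 members, Ctrb1, 2610035D17Rik, 3 most alike genes per member and list members with small p or in the partner, paralog and target lists. Others (Ctrc with Rbpjl, Rbpj-ps3, Edem1, Hspa5, Cog6, Col1a1, Col1a2, Pnlip, Pla2g1b, Alb) were named after their values were seen.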

Additional observations from a re-analysis of the deposited data

Results flagged for a closer look

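In each of 44 genes with a mean of at least 1 CPM (the factors, Ctrb1, 2610035D17Rik, Alb, Ctrc, Rbpj-ps3 and the lists of partners, paralogs and Bhlha15 targets), the 4 WT libraries were searched for 1 library far from the others, by Dixon's ratio of its gap to the whole range at the 95% critical value. None of the 8 factors met this. It was met by 8 other genes. The nominal rate of about 1 in 20 groups holds for independent groups, whereas these genes share the same 4 libraries. Some, such as Alb and Ctrc, were also named after their values were seen. The count of 8 in 44 is therefore not set against chance. WT replicate 4 stood apart with 35435 CPM of Ctrb1, 354 CPM of Alb, 224 CPM of Tcf3 (low) and 81.4 CPM of Copz2, a coat protein listed with Bhlha15. WT replicate 2 stood apart with 80.6 CPM of Rbpj and 35.3 CPM of Creb3 (low), a paralog of Creb3l1. WT replicate 3 stood apart with 104 CPM of Gata6 and with 11.9 CPM of Nr5a1, the paralog of Nr5a2 known from adrenal gland and gonad. Nr5a1 had 0.118 to 0.532 CPM in cKO and 0.357 to 1.24 CPM in the other WT libraries.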

How the results depend on the processing

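Under 16 alternatives 0 of the 8 factors passed, and the same held for the members of the 17 other lists in each fit that tested them (digestive enzymes were not tested where they were left out of the scaling). Of 128 refitted log2 fold changes of the factors, 115 kept their direction and 13 changed it, with a lowest adjusted p of 0.972 (edgeR, limma-voom and DESeq2). With library totals Rbpjl gave −0.0016, and without WT replicate 4 and cKO replicate 1 Gata4 gave 0.022. Leaving out 1 library gave −0.17 to 0.23 for Rbpjl, −0.023 to 0.16 for Bhlha15, −0.0029 to 0.16 for Xbp1, −0.17 to 0.044 for Nr5a2, −0.13 to 0.038 for Gata4, −0.17 to 0.028 for Creb3l1, 0.065 to 0.34 for Ptf1a and −0.19 to −0.055 for Foxp2. The cause was not tested. 2610035D17Rik passed at −1.76 with no filter on low counts (adjusted p 0.0121), at −1.76 in DESeq2 (1.25e-09) and at −1.77 with the replicate block (0.043), and leaving out 1 library gave −2.02 to −1.61 (adjusted p 0.191 to 0.631). Over all features edgeR called 1, an unannotated feature with a running number as its name, against 0 with DESeq2 size factors, library totals or a minimum of 1 CPM, 4 with no filter, 13 in DESeq2, 13 with the replicate block and 0 to 3 without 1 library. Libraries of the same number deviated from their group means with r of 0.28, 0.42 and 0.06. cKO replicates 1 and 2 were most like the WT replicate of the same number, and cKO replicate 3 was most like WT replicate 2. That does not settle whether the numbers mark pairs. The labels give each library its own animal, so the main fit took no pairs, and the replicate block is among the alternatives. In that block WT replicate 4 has no cKO library of its number, so the log2 fold changes rest on replicates 1 to 3. The count of factors with r over 0.8 with Ctrb1 was 3 in most settings, 4 without WT replicate 1 and 2 with Cpa1 in its place, where Ptf1a gave 0.69 and Xbp1 0.80. With 3 and 4 embryos the precision is limited. In the main edgeR fit 2610035D17Rik stood at −1.76 (SE 0.215) and did not pass (adjusted p 0.0902). The same libraries passed in DESeq2, so that call depended on the method. The part of the number of embryos in it was not tested.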

Other observations

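Factors of pancreatic progenitors and the trunk, the epithelium from which duct and endocrine cells arise, were also listed beside the acinar factors. Of 16 tested, 4 were higher and 12 lower in cKO, with a median log2 fold change of −0.08, and 0 passed with edgeR in either direction. Of all features, 46% were higher in the fit, with a median of −0.01. Their summed level was 604 to 825 CPM in cKO and 761 to 834 CPM in WT, and the lowest library was cKO replicate 1, which was also lowest in Nr5a2 and Gata4 and highest in Ptf1a. Duct and endocrine markers had summed levels of 2882 to 3187 and 2018 to 2520 CPM in cKO and 2685 to 3345 and 1857 to 2329 CPM in WT.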
